A study of Saccharomyces cerevisiae with 4 samples.

Results

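The nuclear genes of the mitochondrial respiratory chain and ATP synthase, with the HAP transcription factors that control many of them, were compared between yeast whose histone H3 lacks 3 methylated lysines and yeast with wild-type H3. The set held 44 genes, taken by gene symbol from the probe annotation of the arrays, out of 5656 genes tested. It comprised 3 NADH dehydrogenases, 4 subunits of complex II, 9 of complex III, 2 forms of cytochrome c, 9 subunits of complex IV, 12 of complex V and 5 HAP regulators. All 44 were measured, and none was removed by a filter. Of these genes 41 had 1 probe set and 3 had several, and no gene was read by a probe set whose suffix marks shared sequence.

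The study used 4 single-colour Affymetrix arrays of budding yeast (Saccharomyces cerevisiae), 2 per group, and the series text calls the cultures of each group replicates. The mutant strain carries H3 K4,36,79R, in which arginine replaces lysines 4, 36 and 79, the residues methylated by Set1, Set2 and Dot1, and the control is labelled as a wild-type strain. All cultures were grown to mid-log phase in selective galactose medium, moved to selective glucose medium for 9 h and harvested at an OD600 of 0.5 to 0.7. Per the series text glucose shuts off a gene for unmutated H3, after which the mutant cells make only K4,36,79R H3. The comparison therefore reads cells growing in glucose, a sugar that represses respiration. The strain background, mating type and marker genes are not given in the sources used here, no probe set is known to read a mutated codon, and other time points of the series are not analysed here.

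Yeast respires through a chain in the inner mitochondrial membrane. It has no proton-pumping complex I, and single-subunit NADH dehydrogenases pass electrons to ubiquinone, as does complex II (succinate dehydrogenase), which is also an enzyme of the citric acid cycle. Complex III (cytochrome bc1) hands the electrons to cytochrome c, complex IV (cytochrome c oxidase) passes them to oxygen, and complex V (ATP synthase) uses the resulting proton gradient to make ATP. Glucose lowers transcription of many of these genes, and the Hap2, Hap3, Hap4 and Hap5 proteins, which act together at CCAAT boxes, and the heme-responsive Hap1 activate them. A few core subunits of complexes III, IV and V are encoded in the mitochondrial genome and were not part of the set.

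None of the 44 genes rose or fell in the H3 mutant in a limma test over all 5656 genes (Benjamini-Hochberg adjusted p under 0.05), in which 1.87% of all genes were called, 1.03% higher and 0.849% lower. With p under 0.05 before adjustment, 4 of the 44 were higher (ATP4, ATP7, ATP14 and HAP1) and 2 were lower (QCR10 and HAP3), beside 12.0% and 11.2% of all genes. Most members lay slightly above wild type, with 35 of 44 log2 changes above 0, against 52.1% of all genes, and a median log2 change of 0.19 against 0.02 for all genes. The 2 wild-type arrays also differed across the set. Wild-type replicate 2 lay below replicate 1 for 35 members and above it for 9, while it lay above for 2965 of all 5656 genes. The median of that difference was -0.10 for the members and 0.01 for all genes. Both mutant arrays exceeded both wild-type arrays for 17 members, and both lay below for 4, where 28.1% and 27.2% of all genes did so. The adjusted p of members ran from 0.133 for HAP3 to 0.999 for COX4. The 95% intervals of 40 members lay between log2 changes of -1 and 1. With 2 arrays against 2, an exact permutation test of any single gene cannot give a p under 0.33, and the p-values measure the spread between these cultures only.

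Signals are MAS5 values, divided by the median of each array and brought to a common level, and log2 changes are mutant minus wild type after a pseudocount of 5.71 was added to each signal. On values as deposited, without that scaling, the median of all genes was -0.32, that of the members was -0.21, 8 members lay above 0, and QCR10 (log2 change -0.82, adjusted p = 0.0199) and HAP3 (log2 change -0.85, adjusted p = 0.0169) passed the limma test, where 20.0% of all genes did. The arrays were of whole cultures, in which fewer cells with a transcript and less of it per cell cannot be told apart.

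**Figure D1:**
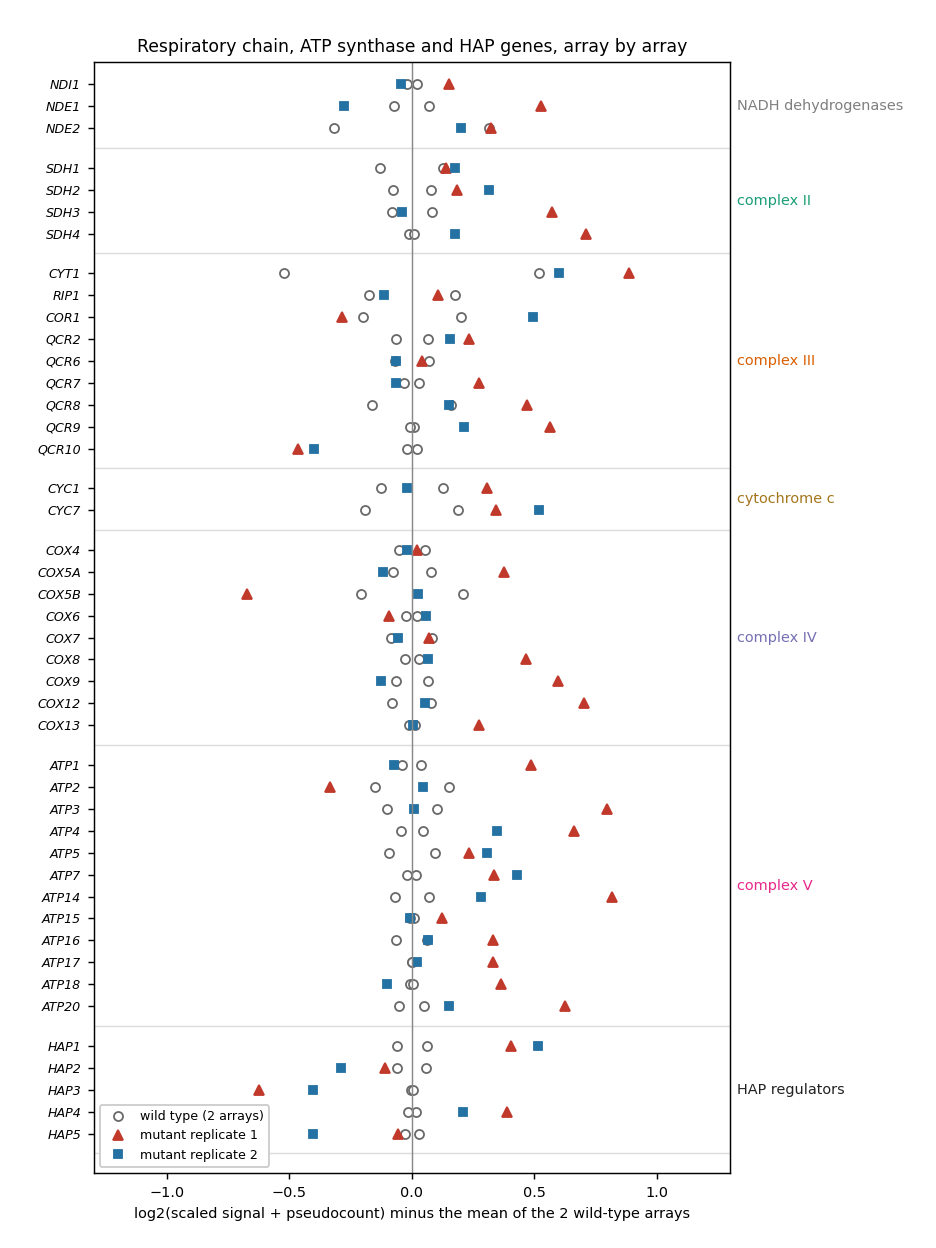
Each row is a gene, and the x axis gives its log2 signal on an array minus the mean of the 2 wild-type arrays. Open circles are wild-type arrays, red triangles mutant replicate 1 and blue squares mutant replicate 2. The triangles lie right of both circles for 32 genes and the squares for 19.

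The 2 mutant arrays did not read these genes alike. Mutant replicate 1 exceeded both wild-type arrays for 32 of 44 members and lay below both for 8, and mutant replicate 2 exceeded both for 19 and lay below both for 11. The median of the members was 0.28 and 0.33 above the wild-type arrays in mutant replicate 1, and -0.01 and 0.09 relative to them in mutant replicate 2. The same tilt was present in other bright genes, since the 1081 genes with a mean signal of at least 200, a class that holds 29 of the members, had medians of 0.14 and 0.18 in mutant replicate 1 and of -0.14 and -0.11 in mutant replicate 2. The 29 bright members had 0.30 and 0.39 in mutant replicate 1 and -0.07 and 0.08 in mutant replicate 2, which is above the bright genes in each of the 4 pairs. After quantile normalization the 44 members had 0.17 and 0.21 in mutant replicate 1 and 0.10 and 0.17 in mutant replicate 2, and the bright genes lay between -0.04 and 0.02. Without mutant replicate 1, 26 members lay above 0 with a median of 0.04, and without mutant replicate 2, 36 did with a median of 0.33. For wild-type replicate 2 minus replicate 1, the median of the 44 members was -0.10, and -0.05 after quantile normalization. The bright genes had -0.02 and 0.03 there.

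**Figure D2:**
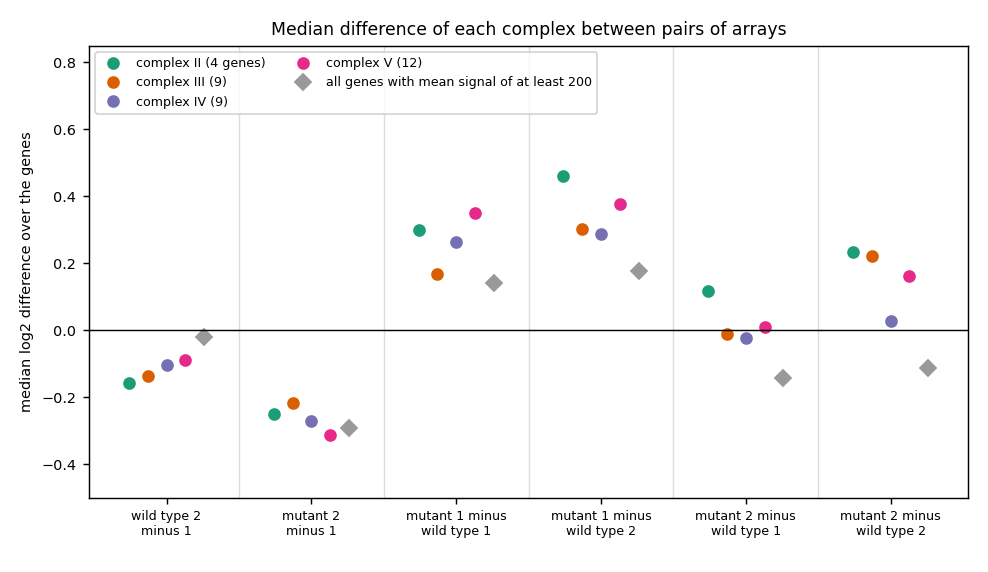
The y axis gives the median log2 difference over the genes of a complex for each of the 6 pairs of arrays, with the number of genes in brackets, and grey diamonds give the same for all genes with a mean signal of at least 200. The complexes lie above the diamonds in all 4 pairs of a mutant and a wild-type array, and the diamonds lie above 0 with mutant replicate 1 and below 0 with mutant replicate 2.

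Median log2 changes by complex were 0.26 for complex II, 0.11 for complex III, 0.13 for complex IV and 0.24 for complex V. The array medians of a complex varied between replicates with SDs of 0.171 for complex II, 0.0987 for complex III, 0.108 for complex IV and 0.113 for complex V. The differences between complexes were of the size of these SDs and were not tested. Without mutant replicate 1 the medians were 0.18, 0.15, 0.0043 and 0.055 for complexes II, III, IV and V, and without mutant replicate 2 they were 0.38, 0.24, 0.28 and 0.35. All 4 genes of complex II had log2 changes above 0, as did 6 of 9 in complex III, 7 of 9 in complex IV and 11 of 12 in complex V. Both mutant arrays lay above both wild-type arrays for 3 genes of complex II, 3 of complex III, 1 of complex IV and 7 of complex V. Of all genes 52.1% had log2 changes above 0, and 28.1% had both mutant arrays above both wild-type arrays.

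Of the NADH dehydrogenases, NDI1, the enzyme on the matrix side of the inner membrane, read 87.8 and 90.4 on the wild-type arrays against 99.6 and 86.2 on the mutant arrays. Its log2 change was 0.05 ± 0.15 (SE), and the groups overlap. NDE1, the main external NADH dehydrogenase, which takes electrons from cytosolic NADH, read 1229 and 1112 on the wild-type arrays against 1688 and 964 on the mutant arrays. Mutant replicate 1 was the highest of its 4 arrays and mutant replicate 2 the lowest. NDE2, the second external enzyme, was dim at 12.9 and 23.1 on the wild-type arrays against 23.2 and 20.9 on the mutant arrays, and only the first wild-type array stood apart. The log2 changes of NDE1 and NDE2 were 0.13 and 0.26, with intervals of -0.60 to 0.85 and of -0.28 to 0.81.

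Complex II had small positive differences in all of its subunits. SDH1, the flavoprotein that oxidises succinate, read 134 and 111 on the wild-type arrays against 135 and 139 on the mutant arrays, and SDH2, the iron-sulfur subunit, read 358 and 321 on the wild-type arrays against 386 and 424 on the mutant arrays. The groups of both genes were apart by little, and their log2 changes were 0.16 ± 0.16 and 0.25 ± 0.17 (SE). SDH3, a membrane anchor subunit, read 361 and 323 on the wild-type arrays against 510 and 332 on the mutant arrays, so that mutant replicate 2 lay between the wild-type arrays. SDH4, the other anchor subunit, read 328 and 332 on the wild-type arrays against 543 and 373 on the mutant arrays, and both mutant arrays were higher than both wild-type arrays. The log2 change of SDH4 was 0.44 with an SE of 0.22 (limma adjusted p = 0.270), and that of SDH3 was 0.26 (adjusted p = 0.534).

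Complex III held both the highest and the lowest log2 changes among the subunits of the 4 complexes. CYT1 encodes cytochrome c1, which passes electrons to cytochrome c. It read 185 and 87.1 on the wild-type arrays against 241 and 196 on the mutant arrays, with a log2 change of 0.75 ± 0.32 (SE, interval -0.02 to 1.51, adjusted p = 0.223). The wild-type arrays of CYT1 differed more from each other than the first of them did from either mutant array. Without wild-type replicate 1, the higher of the wild-type arrays, the log2 change of CYT1 was 1.27, and without wild-type replicate 2 it was 0.22.

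QCR10, a small membrane subunit, was the only gene of complexes II to V with both mutant arrays below both wild-type arrays. It read 258 and 251 on the wild-type arrays against 183 and 192 on the mutant arrays, which is 254 ± 4.92 and 187 ± 6.22 (SD, n = 2), and the log2 change was -0.43 with an SE of 0.15 (limma adjusted p = 0.154). Leaving out any 1 array gave -0.46 to -0.40. QCR9, another small subunit, read 511 and 505 on the wild-type arrays against 754 and 591 on the mutant arrays, a log2 change of 0.39 with both mutant arrays higher. QCR8, a subunit next to cytochrome b, read 542 and 432 on the wild-type arrays against 673 and 538 on the mutant arrays, and its second mutant array lay just under the first wild-type array. The second QCR8 probe set was dim, with 14.3 and 15.1 on the wild-type arrays against 19.8 and 23.9 on the mutant arrays, and its log2 change was 0.43, beside 0.31 for the set used.

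QCR6, an acidic subunit near cytochrome c1, read 482 and 438 on the wild-type arrays against 473 and 439 on the mutant arrays, so that the mutant arrays lay inside the wild-type range. RIP1, the Rieske iron-sulfur protein, had a log2 change of -0.0033, with an interval of -0.47 to 0.47. The remaining log2 changes were 0.20 for the core protein QCR2, 0.11 for the core protein COR1 and 0.10 for QCR7. COR1 differed within the mutant more than between groups, at 133 and 232 in the mutant and 188 and 141 in wild type. By role, of 5 small subunits 3 lay above 0 and 2 below.

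The genes of cytochrome c come in an aerobic form, CYC1, and a form favoured at low oxygen, CYC7. CYC1 read 875 and 733 on the wild-type arrays against 993 and 791 on the mutant arrays, and the groups overlap. CYC7 read 70.3 and 93.2 on the wild-type arrays against 104 and 119 on the mutant arrays, with both mutant arrays higher, and the log2 change was 0.43 with an SE of 0.18 (limma adjusted p = 0.216). The interval of CYC7 ran from -0.0012 to 0.86 and that of CYC1, at 0.14, from -0.38 to 0.67, and the difference between the forms was not tested. Complex IV has a like pair in COX5A, the aerobic form of subunit V, and COX5B, the hypoxic form. COX5A read 465 and 417 on the wild-type arrays against 574 and 405 on the mutant arrays, while COX5B read 49.99 and 68.5 on the wild-type arrays against 34.6 and 59.8 on the mutant arrays. Each pair of groups overlaps, and the log2 changes were 0.13 for COX5A and -0.32 for COX5B, whose interval was -0.95 to 0.30. The hypoxic forms CYC7 and COX5B thus lay on opposite sides of 0. Of 7 genes listed for the hypoxic response and its repressors none passed, and ROX1, which encodes the main repressor of hypoxic genes, read 63.7 and 47.3 on the wild-type arrays against 31.4 and 46.2 on the mutant arrays.

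**Figure D3:**
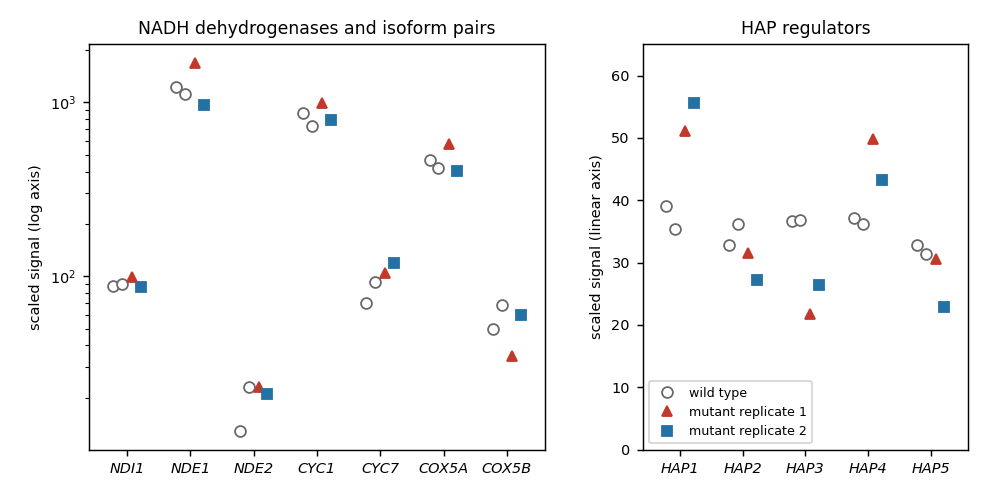
Scaled signals on each array are plotted for the NADH dehydrogenases and isoform pairs (left, log axis) and for the HAP regulators (right, linear axis), with wild-type arrays as open circles. HAP1 and HAP4 lie above and HAP2, HAP3 and HAP5 below wild type on both mutant arrays, and the levels of different genes come from different probe sets and are not to be compared.

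In complex IV the mutant arrays overlapped the wild-type arrays for 8 of 9 genes. COX8, a small subunit, was the exception, with 472 and 454 on the wild-type arrays against 642 and 485 on the mutant arrays, a log2 change of 0.27 ± 0.20 (SE). COX12, a subunit on the intermembrane space side, read 899 and 804 on the wild-type arrays against 1388 and 884 on the mutant arrays, and COX9, a small membrane subunit, read 387 and 352 on the wild-type arrays against 561 and 338 on the mutant arrays. In both genes mutant replicate 1 alone was high, and their log2 changes of 0.38 and 0.24 became 0.06 and -0.13 without it. COX6, another small subunit, read 458 and 444 on the wild-type arrays against 423 and 470 on the mutant arrays, a log2 change of -0.02. COX4, which binds zinc, and COX7 had log2 changes of 0.00065 and 0.0075, with intervals of -0.41 to 0.41 and of -0.42 to 0.43. COX13, at 0.14, completed the complex.

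In complex V the positive differences included every gene of the peripheral stalk, the part that holds the catalytic head still against the rotor. All 4 peripheral stalk genes, ATP4, ATP5, ATP7 and ATP14, had both mutant arrays above both wild-type arrays, as did 28.1% of all genes. The log2 changes of these 4 were 0.27 to 0.55, with a median of 0.44. The 3 genes of the central stalk and the 3 other membrane subunits also all lay above 0. Both mutant arrays were higher for 1 and 2 of them. This grouping by role was made after the values were seen, and it was not tested. ATP14 read 251 and 227 on the wild-type arrays against 426 and 292 on the mutant arrays, and the log2 change was 0.55 with an SE of 0.21 (limma adjusted p = 0.187). ATP4 read 208 and 222 on the wild-type arrays against 344 and 275 on the mutant arrays, and its log2 change was 0.51, SE 0.17 (adjusted p = 0.153). Mutant replicate 1 was the higher mutant array in both genes.

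ATP7 was more even, with 180 and 175 on the wild-type arrays against 226 and 241 on the mutant arrays, which is 177 ± 3.27 and 233 ± 11.0 (SD, n = 2), and the log2 change was 0.38 with an SE of 0.15 (limma adjusted p = 0.189). ATP5, the subunit that links the stalk to the head, read 182 and 159 on the wild-type arrays against 201 and 212 on the mutant arrays, and its log2 change was 0.27. In ATP5 and ATP7 mutant replicate 2 was the higher of the mutant arrays, unlike in 32 of the 44 members. Leaving out any 1 array kept the log2 change at 0.34 to 0.43 for ATP7, 0.18 to 0.36 for ATP5, 0.35 to 0.66 for ATP4 and 0.28 to 0.82 for ATP14. A second and dimmer ATP14 probe set did not follow, with 43.3 and 50.8 on the wild-type arrays, 46.7 and 45.4 on the mutant arrays and a log2 change of -0.02.

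The catalytic head gave no common direction. ATP1 encodes its alpha subunit and had a log2 change of 0.21, and ATP2, which encodes the beta subunit with the catalytic sites, read 607 and 492 on the wild-type arrays against 432 and 564 on the mutant arrays, a log2 change of -0.15. Both groups of ATP2 overlap. In the central stalk, which turns inside the head, ATP3 read 962 and 834 on the wild-type arrays against 1561 and 901 on the mutant arrays, with mutant replicate 1 far above the other arrays. Its log2 change of 0.40 was 0.0086 without that array. ATP15, a small subunit of the same stalk, read 675 and 666 on the wild-type arrays against 732 and 667 on the mutant arrays, a log2 change of 0.06, and ATP16 had 0.20. The other membrane subunits had 0.39 for ATP20, a subunit of the dimer interface, 0.18 for ATP17 and 0.13 for ATP18.

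**Figure D4:**
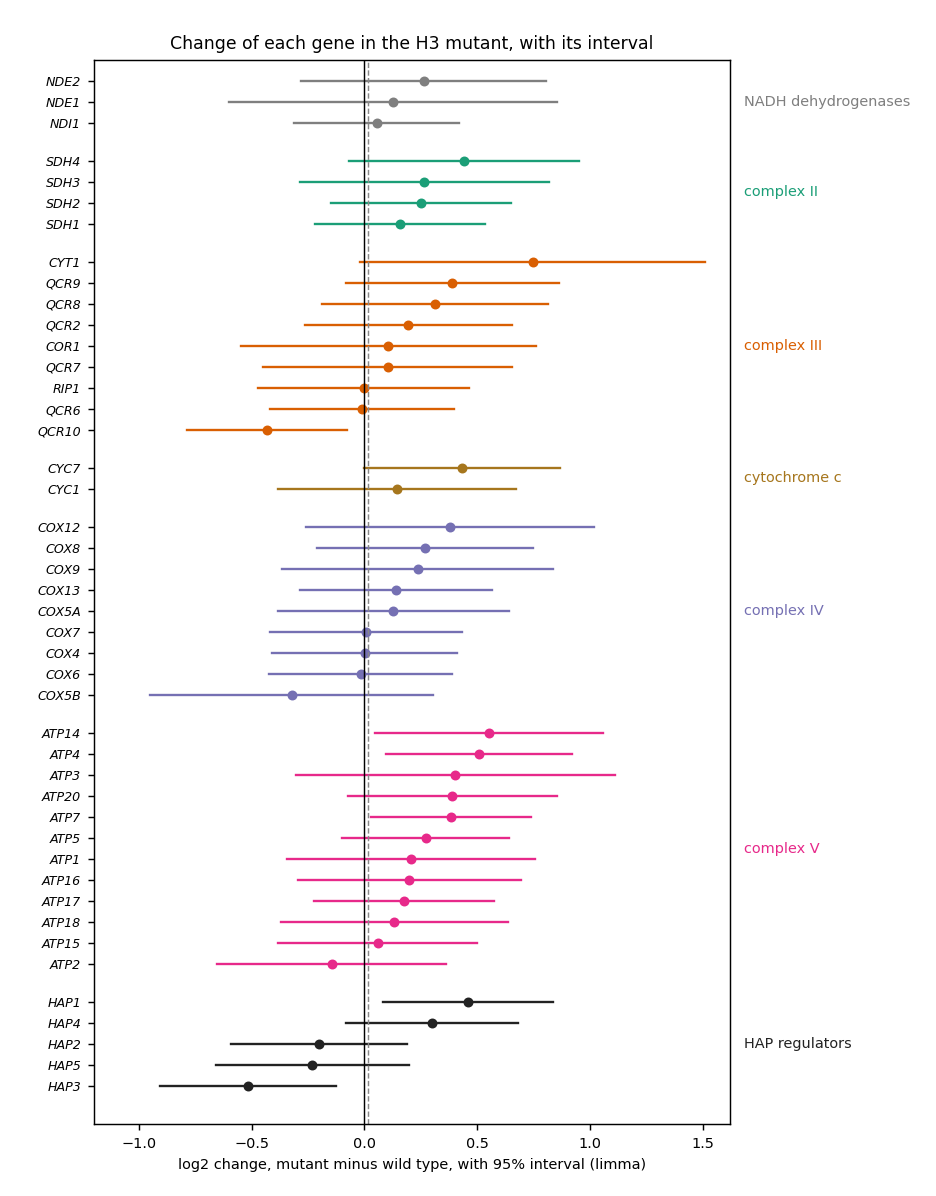
Points give the log2 change of each gene and lines its 95% interval from limma, in order of size within each class. The dashed line marks the median of all genes, 0.02. Intervals of 38 of the 44 genes hold 0, and those of ATP14, ATP4, ATP7 and HAP1 lie above it and those of QCR10 and HAP3 below it.

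The HAP genes lay on both sides of wild type, and for each of the 5 the mutant arrays did not overlap the wild-type arrays, as in 28.1% (mutant above) and 27.2% (mutant below) of all genes. HAP1, the heme-dependent activator, read 39.1 and 35.5 on the wild-type arrays against 51.2 and 55.6 on the mutant arrays, which is 37.3 ± 2.57 and 53.4 ± 3.13 (SD, n = 2), and the log2 change was 0.46 with an SE of 0.16 (limma adjusted p = 0.153). HAP4, the glucose-repressed activation subunit of the CCAAT complex, read 37.1 and 36.2 on the wild-type arrays against 49.8 and 43.3 on the mutant arrays, a log2 change of 0.30 ± 0.16 (SE). Each mutant array read higher than either wild-type array in both genes.

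The DNA-binding subunits of the CCAAT complex lay below wild type, at low signals. On the probe sets used, mean signals of the 5 HAP genes over all arrays were 29.4 to 45.3, against a median of 58.4 for all genes. HAP3 read 36.6 and 36.9 on the wild-type arrays against 21.8 and 26.3 on the mutant arrays, which is 36.7 ± 0.178 and 24.1 ± 3.22 (SD, n = 2), and the log2 change was -0.52 with an SE of 0.17 (limma adjusted p = 0.133). HAP2 read 32.9 and 36.2 on the wild-type arrays against 31.5 and 27.2 on the mutant arrays, and HAP5 read 32.8 and 31.3 on the wild-type arrays against 30.5 and 22.8 on the mutant arrays. The groups of HAP2 and HAP5 were apart by little, with log2 changes of -0.20 and -0.23. HAP1 has 2 more probe sets, whose suffix marks shared sequence. They were brighter, with log2 changes of -0.10 and 0.0083, so that the HAP1 sets disagree.

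Other genes of the pathway gave no called change either. Of 125 genes in 10 lists, chosen by function, 121 were measured and 0 passed the limma test over all genes, while 12 lay higher and 9 lay lower at p under 0.05 before adjustment, beside 12.0% and 11.2% of all genes. The citric acid cycle list, which shares complex II with the chain, had 11 of 12 genes above 0, beside 52.1% of all genes. Its median log2 change was 0.36. Relative to the 2 wild-type arrays its median was 0.50 and 0.39 in mutant replicate 1 and 0.06 and 0.15 in mutant replicate 2. The highest member of the list, CIT1, citrate synthase, read 278 and 566 on the wild-type arrays against 714 and 607 on the mutant arrays. The lowest, LPD1, a subunit of several dehydrogenase complexes, had -0.16. Coenzyme Q synthesis had 7 of 11 above 0 and a median of 0.30, from 0.76 for COQ3, a methyltransferase of that pathway, to -0.38 for COQ6, a monooxygenase of it. The list of other electron donors had a median of 0.25, led by GUT2, the mitochondrial glycerol 3-phosphate dehydrogenase, at 0.61, with DLD2, a D-lactate dehydrogenase, at -0.24.

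Assembly factors lay on both sides of 0. Of 29 factors for complex IV 18 lay above 0 with a median of 0.10. OXA1, which inserts proteins into the inner membrane, read 232 and 254 on the wild-type arrays against 147 and 161 on the mutant arrays, a log2 change of -0.64 (limma adjusted p = 0.0799), and COX11, a copper chaperone of complex IV, had 0.86 with wild-type arrays of 66.5 and 17.0. Factors for complex III and cytochrome c had a median of 0.01, with CYT2, which attaches heme to cytochrome c1, at 75.2 and 71.5 on the wild-type arrays against 117 and 116 on the mutant arrays (log2 change 0.63, adjusted p = 0.0749) and CBP6, a factor for cytochrome b synthesis, at -0.26. The ATP synthase list of assembly factors, inhibitors and dimer subunits had a median of 0.08, from 1.10 for ATP19, a small membrane subunit, with wild-type arrays of 430 and 82.6, to -0.52 for FMC1, an assembly factor of the catalytic head. Complex II assembly and paralogs had 0.23, from 1.00 for SHH3, a paralog of SDH3 that read 8.57 and 7.28 on the wild-type arrays against 26.0 and 17.6 on the mutant arrays, to -0.76 for FLX1, a carrier linked to flavin supply.

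Heme synthesis had a median of 0.09, from 0.39 for HEM14, protoporphyrinogen oxidase, to -0.29 for HEM13, coproporphyrinogen oxidase, and membrane carriers had 0.14, from 0.53 for the ADP/ATP carrier AAC1 to -0.55 for the dicarboxylate carrier DIC1. The hypoxic list had a median of -0.04, from 0.10 for AAC3, the anaerobic ADP/ATP carrier, to -0.47 for ROX1. Over the 121 genes both mutant arrays lay above wild type for 41 and below for 25, beside 28.1% and 27.2% of all genes.

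None of the 22 marker genes of growth state and mating type passed the limma test over all genes, with adjusted p from 0.0546 for FBP1 to 0.917 for ADH1. Summed signals of 6 genes of respiring or glucose-starved cells (ADH2, FBP1, PCK1, ICL1, HXT5 and JEN1) were 382 and 399 on the wild-type arrays against 699 and 537 on the mutant arrays. All 6 log2 changes were above 0, beside 52.1% of all genes. Both mutant arrays were higher for 5, where 28.1% of all genes did so. Signals of 4 galactose genes summed to 52.3 and 42.7 on the wild-type arrays against 62.7 and 68.0 on the mutant arrays, and 4 genes of glucose-grown cells summed to 7341 and 6815 on the wild-type arrays against 9432 and 5752 on the mutant arrays. Within the glucose list HXT1, a low-affinity glucose transporter, read 701 and 634 on the wild-type arrays against 492 and 327 on the mutant arrays. Its log2 change was -0.72. The other 3 genes of that list had log2 changes above 0, at 0.08 for ADH1, 0.16 for HXT3 and 0.14 for PDC1, and their groups overlap. The part of the growth-state markers in the small positive differences of the respiratory genes was not tested. Signals of 5 genes specific to a cells summed to 1462 to 2715 and those of 3 alpha-specific genes to 36.3 to 55.0. Both mutant arrays were lower for 4 of the 5 a-specific genes, beside 27.2% of all genes. No marker of these lists was at 0.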

How the data were processed

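Biotin-labelled cRNA from about 20 ug of total RNA per sample was hybridised to 1 array each, per the labels' protocols. The authors deposited linear MAS5 intensity values, per the submitters' processing notes, with the version and further constants per array not given in the sources used here. Deposited wild-type values have 1 decimal and mutant values more, as in NDI1 (98.3 and 104.3 against 88.8687 and 71.9632). Median scaling removes a constant factor per array. Any other difference in processing between the groups cannot be told apart from the mutation. Arrays were scaled to a common median over 9335 probe sets (deposited medians of 37.3 and 38.4 for wild-type and of 29.7 and 27.8 for mutant arrays). A pseudocount of 5.71, the 20th percentile of the scaled values, was added before log2, which understates changes of dim genes. The annotation gives 1 symbol for 6504 probe sets and several for 328, and all 6504 matched the reference gene table of assembly R64 by gene number. A gene was read by 1 probe set, without a shared-sequence suffix where possible and then the brightest.

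Groups came from sample titles. Mutant minus wild type was tested with limma 3.58.1 in R 4.3.3 (eBayes with trend, two-sided). The fit had no block, as no label ties a replicate number to a shared culture. Alternatives changed the scaling, pseudocount, filter, probe set rule, variance model and block, and left out each array. The code was tested on simulated data. The number of arrays limits the precision. Members and lists were chosen with earlier results of these data known, so lists are described by counts and medians. Every member was named, and single-array values were given for complex II, the 3 highest and 2 lowest log2 changes of complexes III, IV and V, members at an unadjusted p under 0.05, isoform pairs, NDI1 and HAP genes. ATP5, COR1, HXT1 and array values of pathway genes were added after values were seen. Sequences, promoter motifs and protein identities were not analysed here.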

Additional observations from a re-analysis of the deposited data

How the results depend on the processing

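Under the alternatives that kept every array, 0 members were called, except with the replicate block and on the values as deposited. With the replicate block 1 member was called (CYT1, limma adjusted p = 0.00822), where 12.5% of all genes were called. On the values as deposited 0 members were higher and 2 lower, where 20.0% of all genes were called. The log2 change of CYT1 was 1.27 without wild-type replicate 1 and 0.22 without wild-type replicate 2. Over all genes the main counts were 58 higher and 48 lower. They were 66 and 1065 on the values as deposited, 38 higher with equal trimmed means, 11 and 21 with all probe sets fitted, 30 lower without the variance trend, 159 and 118 with robust eBayes, 249 and 206 at an adjusted p under 0.1, 425 and 283 with the replicate block, and 3 and 6 among genes with a mean signal of at least 200. Leaving out single arrays gave 0 to 196 higher and 0 to 85 lower, with 0 in both directions without either mutant array, 0 to 1 member higher and 26 to 38 members above 0. The median was 0.036 to 0.33 for all members, 0.18 to 0.38 for complex II, 0.073 to 0.26 for complex III, 0.0043 to 0.28 for complex IV and 0.055 to 0.35 for complex V. On the values as deposited 8 members lay above 0 and medians were -0.21 for all members and -0.13, -0.28, -0.26 and -0.15 for complexes II, III, IV and V.

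Signs of 27 members turned on the values as deposited: NDI1 (-0.32), NDE1 (-0.27), NDE2 (-0.044), SDH1 (-0.22), SDH2 (-0.14), SDH3 (-0.13), COR1 (-0.28), QCR2 (-0.20), QCR7 (-0.29), QCR8 (-0.081), QCR9 (-0.0041), CYC1 (-0.25), COX4 (-0.39), COX5A (-0.26), COX7 (-0.39), COX8 (-0.13), COX9 (-0.16), COX12 (-0.016), COX13 (-0.25), ATP1 (-0.19), ATP5 (-0.11), ATP7 (-0.0031), ATP15 (-0.34), ATP16 (-0.20), ATP17 (-0.21), ATP18 (-0.26) and HAP4 (-0.049). That alternative lowers all genes by construction. Signs also turned for COX4 and COX7 with equal trimmed means (-0.022 and -0.015) and cyclic loess (-0.0072 and -0.00082), and for COX7 with quantile normalization (-0.0012). Leaving out single arrays turned 19 members: NDI1 (-0.044 to 0.15), NDE1 (-0.28 to 0.53), NDE2 (-0.053 to 0.58), SDH3 (-0.041 to 0.57), RIP1 (-0.18 to 0.17), COR1 (-0.28 to 0.50), QCR6 (-0.080 to 0.057), QCR7 (-0.067 to 0.27), CYC1 (-0.019 to 0.31), COX4 (-0.052 to 0.053), COX5A (-0.12 to 0.38), COX5B (-0.67 to 0.027), COX6 (-0.093 to 0.059), COX7 (-0.076 to 0.091), COX9 (-0.13 to 0.60), ATP1 (-0.074 to 0.49), ATP2 (-0.33 to 0.044), ATP15 (-0.0081 to 0.13) and ATP18 (-0.10 to 0.37). The other 25 members turned under no alternative except the values as deposited. Other pseudocounts, filters, probe set rules and variance models turned 0 members. The cyclic loess and signal of at least 200 settings were chosen after seeing the data. With 1 array of a group left out, the spread of the remaining array was taken from the other group, and the cause of these differences was not tested. The replicate block rests on numbers that the labels do not tie to a shared culture, and deviations of same-numbered arrays from their group means correlated with r = -0.016 over 5656 genes.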
